A study of Mus musculus with 6 samples.

Results

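The genes described here act on lipoproteins in and around the liver: the plasma lipases Lpl and Lipc, the angiopoietin-like genes Angptl4, Angptl6 and Angptl8, the lipoprotein receptor gene Vldlr, the remodelling genes Lcat and Pltp, and the VLDL lipidation gene Tm6sf2. They are 9 of the 22173 gene symbols in the deposited expression table, and their rows were found in it by symbol. The genes were chosen with earlier results of these data known. The table holds liver RNA-seq of 6 wild type mice in 2 groups of 3, a DDK group and a vehicle group. All 6 mice started the HFHC diet at 6 weeks of age and ate it for 16 weeks. One group received DDK and the other vehicle in the last 4 of these weeks, so every liver here is from a mouse on the diet. DDK is named in the series title as a limonoid, and the comparison asks how it acts in metabolic dysfunction-associated steatohepatitis, a liver disease of fat storage with inflammation. The labels name neither sex, strain, dose nor route, and do not spell out DDK or HFHC.

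Triglyceride leaves the liver in very low density lipoprotein (VLDL) and is broken down on capillary walls by lipoprotein lipase, the product of Lpl. Some angiopoietin-like proteins, ANGPTL4 and ANGPTL8 among them, restrain that enzyme, and the remnants return to the liver through receptors. Hepatic lipase, LCAT and PLTP then reshape remnants and high density lipoprotein (HDL). Hepatocytes make most of these proteins, whereas lipoprotein lipase comes mainly from fat, muscle and macrophages.

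In livers of DDK-treated mice the transcripts of Tm6sf2 and Angptl8 were higher and that of Lpl was lower than in vehicle livers, and Vldlr, which was hardly expressed in either group, stood lower. Tm6sf2 rose from a mean FPKM of 12 ± 3.81 (SD, n = 3) in vehicle to 24.7 ± 5.36 in DDK livers and Angptl8 from 32.1 ± 11 to 55.9 ± 5.40, while Lpl fell from 22.1 ± 6.57 to 12.4 ± 3.23. FPKM is the number of sequenced fragments scaled to gene length and library size. Lipc, Angptl4, Angptl6, Lcat and Pltp did not pass the test. Of the 8 genes with enough signal to be tested, 2 rose and 1 fell by limma at an adjusted p under 0.05, beside 40.5% of all 10681 tested genes called, 10.2% higher and 30.3% lower. The share of the members that was called was thus near that of the table as a whole. The groups did not overlap for 3 of the 8, against 53.3% of all tested genes. The median log2 fold change was 0.26 over the 8 members and -0.23 over all tested genes, so the table as deposited leaned towards lower values in DDK.

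**Figure D1:**
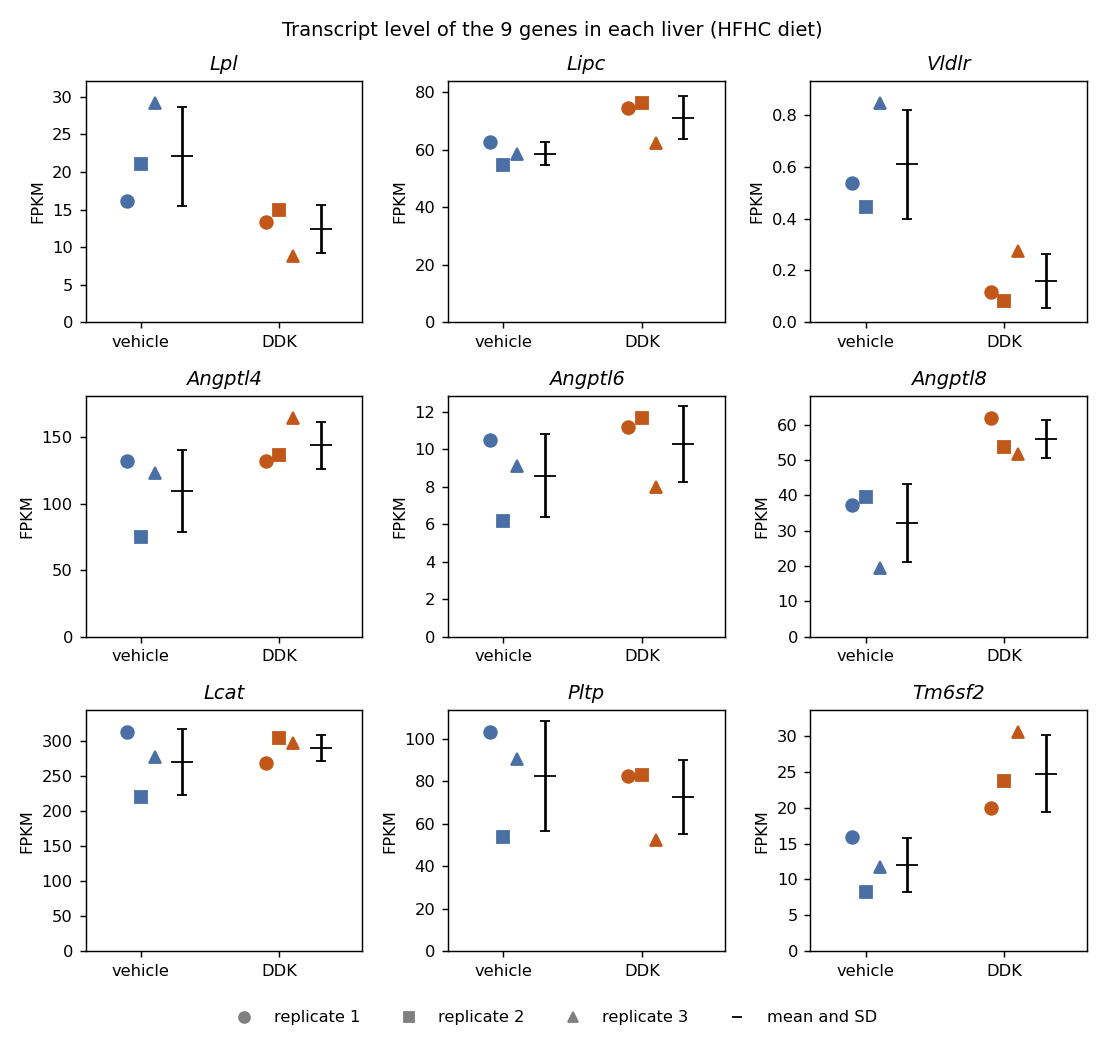
FPKM of each of the 9 genes (y axis, from 0) in each liver, vehicle in blue and DDK in orange, with symbols for replicates 1 to 3 and black bars for the mean and SD of 3 livers. Every DDK liver lay above every vehicle liver for Angptl8 and Tm6sf2 and below every vehicle liver for Lpl and Vldlr, and the groups overlapped for the other 5 genes.

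Between 26576291 and 30237490 fragments lay behind the DDK libraries and between 33963898 and 36105315 behind the vehicle libraries. Over all tested genes 1093 were higher and 3234 lower in DDK, and after median-ratio scaling, which moved the median log2 fold change to -0.03, these were 1815 and 1830. Under TPM, which moved that median to -0.45, they were 631 and 4929. Vehicle replicate 1 lay nearer to the DDK livers than the other vehicle livers on the first principal component (14.1, against 36.2 and 40.0 in vehicle and -36.4 to -23.6 in DDK). Hepatocyte markers dominated every library, with Alb at 17336 to 37838 FPKM, while the pancreas genes Pnlip, Prss1 and Cpa1 and the fat cell gene Lep were listed at 0 in all 6.

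Across the 6 livers the 9 genes spanned a wide range of levels per length. Lcat was the highest, with a mean FPKM of 279 that exceeded 97.0% of tested genes, followed by Angptl4 (127), Pltp (77.5), Lipc (64.8), Angptl8 (44.0), Tm6sf2 (18.4), Lpl (17.2), Angptl6 (9.46) and Vldlr (0.384). The range over the 6 livers of Lcat lay above that of Angptl4 and the range of Vldlr below that of Angptl6, and the ranges of each other neighbouring pair overlapped. Within each liver Angptl4 nevertheless exceeded Pltp, Lipc exceeded Angptl8, Angptl8 exceeded Tm6sf2 and Lpl exceeded Angptl6. The order of Lpl and Tm6sf2 differed between the groups. Lpl was the higher of the pair in each vehicle liver, narrowly so in replicate 1 (16.2 against 15.9), and Tm6sf2 the higher in each DDK liver.

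Upstream windows are shown for Angptl8, which was higher in DDK, and Vldlr, which was lower, because the same motif letters lie in both. The second listed start of Vldlr (chr19:27216770-27217019) has a window without them, which held a CCAAT box and a GC box. RefSeq promoter entries on GRCm38.p6 were matched for 6 of the 9 genes (Angptl6, Angptl8, Lcat, Lipc, Pltp and Vldlr), and the 250 bases before the start are given for Angptl8 (chr9:21835260-21835509, plus strand) and for the first listed start of Vldlr (chr19:27216234-27216483, plus strand), 5′ to 3′. Capitals mark matches, on either strand, to TTGCNNAA, the core bound by C/EBP factors, and to GTTAAT, a half-site of HNF1.
Angptl8: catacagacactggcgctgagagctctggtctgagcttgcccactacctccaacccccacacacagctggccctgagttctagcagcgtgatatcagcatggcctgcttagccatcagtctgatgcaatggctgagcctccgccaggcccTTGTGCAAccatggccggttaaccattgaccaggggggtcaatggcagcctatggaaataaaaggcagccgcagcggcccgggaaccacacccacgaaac
Vldlr: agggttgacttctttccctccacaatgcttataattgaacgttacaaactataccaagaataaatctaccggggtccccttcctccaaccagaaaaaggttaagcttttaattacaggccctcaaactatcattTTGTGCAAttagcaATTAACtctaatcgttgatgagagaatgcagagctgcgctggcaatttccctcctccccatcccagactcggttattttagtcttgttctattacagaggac
The C/EBP core was found 100 bases before the start of Angptl8 and 116 bases before that of Vldlr, in both as TTGTGCAA, and 9.6% of 32851 RefSeq windows of that length hold it. The window of Pltp held it as well, 161 bases before the start. The HNF1 half-site, held by 6.4% of windows, lay 102 bases before the Vldlr start. Other motifs searched on both strands were not found in either printed window. These were the nuclear receptor half-site AGGTCA, present in 14.0% of all windows, the E-box CACGTG, present in 6.0%, and the sterol response element TCACNCCAC, present in 1.1%. The CCAAT box was searched by its own letters (33.8% of windows), the GC box as GGGCGG (32.7%), the TATA box as TATAAA (12.4%) and the HNF4 element as CAAAGTCCA (0.4%). GC made up 58.8% of the Angptl8 window and 41.6% of the Vldlr window, against a median of 52.4% over all windows. The C/EBP, HNF1 and HNF4 motifs were chosen after the windows had been read, and a match is a description of letters only.

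Of the lipases, the transcript of lipoprotein lipase fell and that of hepatic lipase did not pass the test. Lpl (ENSMUSG00000015568.16, chromosome 8, 68880491 to 68907448, plus strand, GRCm38 with GENCODE M21) stood at an FPKM of 13.4, 15.0 and 8.75 in DDK replicates 1 to 3 and at 16.2, 21 and 29.2 in vehicle replicates 1 to 3. The groups did not overlap, but the highest DDK liver and the lowest vehicle liver lay close together, and the vehicle livers were the more spread. The log2 fold change on the log2(FPKM + 1) scale was -0.78 ± 0.23 (SE, limma, adjusted p = 0.0252), or -0.56 relative to the median of all genes. The direction held in all 18 alternatives. It no longer passed with no filter on low values (adjusted p = 0.0850), under 3 scalings (median-ratio 0.0984, quantile 0.0981, length-corrected 0.125) and with any 1 of 3 libraries left out, DDK replicate 3 (-0.57, adjusted p = 0.0747), vehicle replicate 2 (0.0524) or vehicle replicate 3 (-0.57, adjusted p = 0.101).

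Lipc (ENSMUSG00000032207.10, chromosome 9, 70798128 to 70952226, minus strand), which encodes the hepatocyte's own lipase for remnants and HDL, had an FPKM of 74.3, 76.2 and 62.4 in DDK and 62.6, 54.6 and 58.6 in vehicle livers. DDK replicate 3 lay just below vehicle replicate 1, and the other DDK livers lay above all vehicle livers. Its log2 fold change of 0.27 ± 0.13 did not pass (adjusted p = 0.118). It passed only after median-ratio scaling (0.53, adjusted p = 0.0276) and length correction (0.51, adjusted p = 0.0190), and lay at 0.04 after rescaling to TPM (length-scaled values that sum to the same total in each library).

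Vldlr (ENSMUSG00000024924.14, chromosome 19, 27216484 to 27254231, plus strand) encodes a receptor that takes up triglyceride-rich particles carrying apolipoprotein E and is abundant in muscle, heart and fat. Its FPKM was 0.118, 0.0829 and 0.276 in DDK and 0.538, 0.444 and 0.848 in vehicle livers, below the filter of 0.5 in 3 libraries, so it was not among the 8 genes tested. Behind these values were 43, 28 and 106 whole fragments in DDK and 247, 193 and 366 in vehicle livers. Every DDK liver lay below every vehicle liver. With no filter, where 15.1% of 16573 genes were called lower, the log2 fold change was -0.47 ± 0.11 (limma, adjusted p = 0.0341), which understates a change at such low values. On the whole fragments, where limma's voom called 25.9% of 12981 genes lower, it was -2.03 ± 0.45 (adjusted p = 0.00787). The unfiltered call was lost with quantile-normalized values (0.0657), and with any 1 of 4 libraries left out (0.117 and 0.126 for DDK replicates 1 and 2, 0.0675 and 0.0895 for vehicle replicates 2 and 3).

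Among the angiopoietin-like genes only Angptl8 passed. ANGPTL8 is a small protein made in the fed state that takes part in the control of lipoprotein lipase. Angptl8 (ENSMUSG00000047822.8, chromosome 9, 21835510 to 21837347, plus strand) had an FPKM of 62.0, 53.8 and 51.8 in DDK and 37.3, 39.5 and 19.5 in vehicle livers. All DDK livers lay above all vehicle livers, and vehicle replicate 3 was the lowest by a wide margin. The log2 fold change was 0.84 ± 0.23 (adjusted p = 0.0194), or 1.07 relative to the median of all genes. It was positive in all 18 alternatives, and the call was lost with no filter (adjusted p = 0.0732), after length correction (0.53, adjusted p = 0.0957) and without DDK replicate 1 (0.0640) or DDK replicate 2 (0.0561). Without vehicle replicate 3 the change was 0.53 (adjusted p = 0.0365). Angptl8 lies inside Dock6, a gene on the other strand, and shares no exonic base with it. Dock6 stood at 1.22 to 1.88 FPKM.

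Angptl4 (ENSMUSG00000002289.16, chromosome 17, 33773750 to 33781830, minus strand), a lipase inhibitor induced by fasting and by PPAR receptors, had an FPKM of 132, 137 and 165 in DDK and 132, 74.9 and 123 in vehicle livers. The groups met at 132, and vehicle replicate 2 stood apart at the low end. A log2 fold change of 0.43 ± 0.21 did not pass (adjusted p = 0.122). It passed after median-ratio scaling (0.69, adjusted p = 0.0432) and without vehicle replicate 1 (0.58, adjusted p = 0.0473), and was 0.17 without vehicle replicate 2 (adjusted p = 0.420).

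Angptl6 (ENSMUSG00000038742.7, chromosome 9, 20873808 to 20879727, minus strand) encodes a liver-derived circulating protein that, unlike its relatives, is not known chiefly as a lipase inhibitor. Its FPKM was 11.2, 11.7 and 7.99 in DDK and 10.5, 6.17 and 9.11 in vehicle livers, with overlapping groups and a log2 fold change of 0.25 ± 0.20 (adjusted p = 0.347). It did not pass in any alternative, and lay at 0.04 under TPM, 0.05 without vehicle replicate 2, 0.15 without DDK replicate 2, 0.39 without vehicle replicate 1, 0.41 without DDK replicate 3 and 0.52 with quantile-normalized values. Of its 1582 exonic bases 265 are shared with a gene on the opposite strand, A230050P20Rik, and the library kit does not mark strand, so reads of the pair cannot be told apart there.

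The HDL remodelling genes Lcat and Pltp did not pass. Lcat (ENSMUSG00000035237.7, chromosome 8, 105939551 to 105943382, minus strand), which encodes the enzyme that esterifies cholesterol on HDL, had an FPKM of 268, 304 and 296 in DDK and 312, 219 and 276 in vehicle livers. The highest and the lowest value were both in vehicle livers. Its log2 fold change was 0.12 ± 0.15 (adjusted p = 0.559) and turned to -0.10 after quantile normalization, -0.12 under TPM and -0.02 without vehicle replicate 2.

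Pltp (ENSMUSG00000017754.13, chromosome 2, 164839518 to 164857711, minus strand), which encodes the phospholipid transfer protein and is also made by macrophages, had an FPKM of 82.5, 82.8 and 52.4 in DDK and 103, 53.5 and 90.3 in vehicle livers. Each group held 1 low liver, DDK replicate 3 and vehicle replicate 2. Between groups the log2 fold change was -0.16 ± 0.25 (adjusted p = 0.637) and turned to 0.11 after median-ratio scaling, 0.06 without DDK replicate 3 and 0.03 without vehicle replicate 1. Of its 2562 exonic bases 495 are shared with Ctsa on the opposite strand, which stood at 46.1 to 57.4 FPKM.

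Tm6sf2 had the largest fold change of the 8 tested members as deposited. Lpl moved more under TPM and, narrowly, without vehicle replicate 2 (-0.80 against 0.79). Angptl8 moved more without DDK replicate 3 or vehicle replicate 2. Tm6sf2 (ENSMUSG00000036151.15, chromosome 8, 70072924 to 70080066, plus strand) encodes a membrane protein of the secretory pathway that helps to load lipid onto VLDL and is known from a human coding variant that links it to fatty liver. Its FPKM was 20, 23.7 and 30.5 in DDK and 15.9, 8.30 and 11.8 in vehicle livers. All DDK livers lay above all vehicle livers, and the nearest pair was DDK replicate 1 and vehicle replicate 1. The log2 fold change was 1.01 ± 0.23 (adjusted p = 0.00776), or 1.23 relative to the median of all genes. It passed in all 18 alternatives, with log2 fold changes from 0.79 without vehicle replicate 2 to 1.26 after median-ratio scaling.

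**Figure D2:**
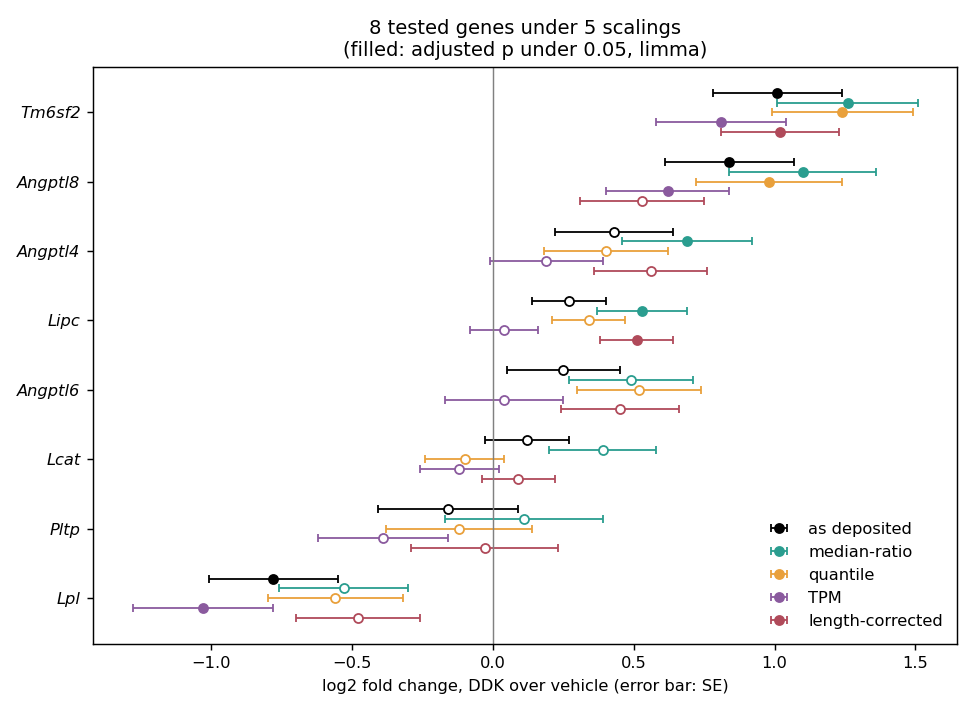
Log2 fold change of DDK over vehicle (x axis) with its SE for the 8 tested genes under 5 scalings, filled where the limma adjusted p was under 0.05. Tm6sf2 was filled under all 5 and Angptl8 under 4, Lpl was filled as deposited (-0.78) and under TPM (-1.03) only, and Lcat and Pltp crossed 0.

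The genes whose pattern over the 6 livers was closest to that of a called member, by root mean square difference of centred log2(FPKM + 1), included Rassf4 (0.0882) for Lpl, Serpina1c (0.0978) and Sec61g (0.162) for Angptl8, and Cxcl1 (0.108) and Ces1c (0.153) for Tm6sf2. Rassf4 had an FPKM of 0.832, 0.816 and 0.315 in DDK and 1.12, 2.01 and 2.76 in vehicle livers, with the lowest and highest liver the same as for Lpl. Serpina1c, an abundant hepatocyte protease inhibitor gene, was lowest in vehicle replicate 3 (871), as Angptl8 was, and stood at 1435 and 1494 in the other vehicle livers. Both genes were chosen for their likeness over these same livers, so a shared lowest or highest liver follows largely from that choice. The log2(FPKM + 1) scale also understates changes of a gene as low as Rassf4.

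Ratios of 2 transcripts within a liver do not depend on a factor that is the same for all genes of a library, though they do on corrections that differ between genes, such as that for length, and 8 were tested, of which 4 are given. Lpl over Lipc was 0.180, 0.196 and 0.14 in DDK and 0.258, 0.385 and 0.498 in vehicle livers, with no overlap and a 2.16-fold lower geometric mean in DDK (log2 difference -1.11 ± 0.31 SE). Tm6sf2 over Mttp, the gene of the transfer protein that starts VLDL assembly, was 0.499, 0.658 and 0.560 in DDK and 0.260, 0.103 and 0.183 in vehicle livers, a 3.34-fold higher ratio in DDK (1.74 ± 0.41). For each of these the exact two-sided permutation p was 0.10, the smallest that 3 against 3 allows, and 0.400 after Benjamini-Hochberg adjustment over the 8 ratios, so this test cannot bring a ratio past 0.05 with 3 livers a group.

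Groups overlapped for the other pairs. Angptl4 over Angptl8 was 2.13, 2.54 and 3.18 in DDK and 3.55, 1.90 and 6.29 in vehicle livers (log2 difference -0.43 ± 0.53, exact permutation p = 0.600, adjusted 0.686). The difference was -0.01 without vehicle replicate 3, -0.87 without vehicle replicate 2 and -0.29 without DDK replicate 1. Angptl4 was the more abundant of these lipase inhibitors in every liver, and vehicle replicate 3, with the lowest Angptl8, had the highest ratio. Pltp over Lcat was 0.308, 0.273 and 0.177 in DDK and 0.332, 0.244 and 0.327 in vehicle livers (-0.28 ± 0.28, exact permutation p = 0.50, adjusted 0.667).

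**Figure D3:**
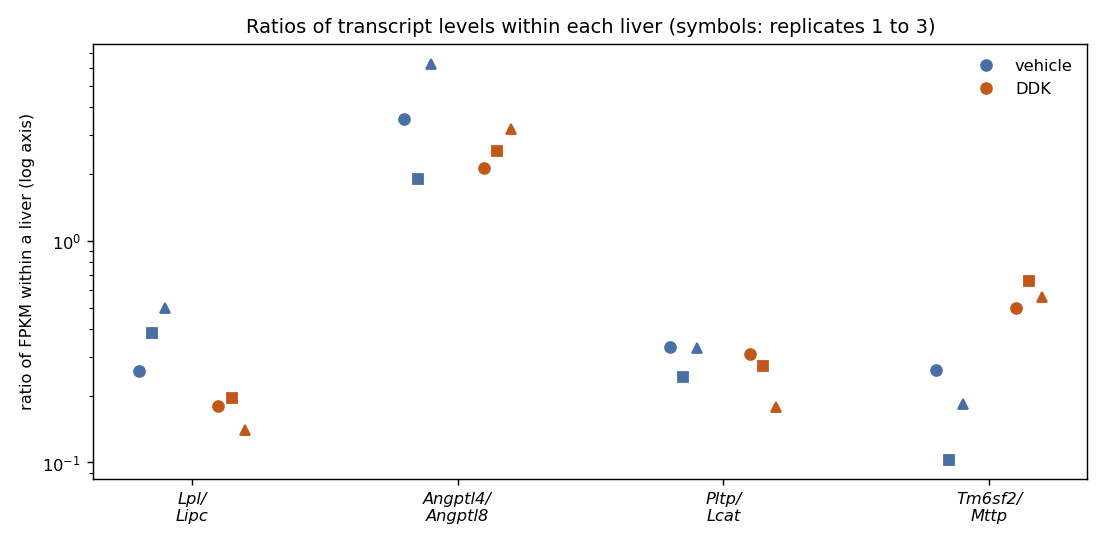
Ratio of the FPKM of 2 genes within each liver (log y axis) for 4 gene pairs, vehicle in blue and DDK in orange, with symbols for replicates 1 to 3. The groups separate for Lpl over Lipc (0.14 to 0.196 in DDK, 0.258 to 0.498 in vehicle) and Tm6sf2 over Mttp (0.499 to 0.658 and 0.103 to 0.260), and overlap for Angptl4 over Angptl8 and Pltp over Lcat.

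The other genes of the pathway were mostly lower or did not pass. Of 77 such genes in 8 lists 72 were tested, 5 of which rose and 32 fell, with a median log2 fold change of -0.37 beside -0.23 for all tested genes. Of all tested genes 10.2% were called higher and 30.3% lower, the shares against which this count and those of each list stand, and several lists lie near them. These counts were 7 and 21 with median-ratio factors, 5 and 25 with quantile-normalized values, 4 and 44 under TPM and 9 and 22 with a length correction. With no filter they were 3 and 22, and without the 20 most abundant genes 1 and 34. Apoa2, Apoc1 and Apoc3 are among those 20 genes, so they were not tested in that setting. Atf4 lost its call there (0.26, limma adjusted p = 0.119) and Smlr1 kept it (1.08). The counts were 3 and 24 without DDK replicate 1, 2 and 21 without DDK replicate 2 and 3 and 27 without vehicle replicate 2. Of the 37 called genes, 20 kept their call in every alternative run for them. For the others it is stated how many alternatives ended their call.

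In the list of lipase partners, activators and inhibitors 2 of 14 genes rose and 4 fell. Lipg, endothelial lipase, a relative of the members Lpl and Lipc that acts on HDL phospholipid, fell from 3.52, 3.86 and 3.62 in vehicle to 0.561, 0.478 and 0.867 in DDK livers (log2 fold change -1.52 ± 0.14, adjusted p = 0.000292). Pcsk6 (-1.57 ± 0.17, from a mean FPKM of 40.8 to 13.0) and Furin (-0.98 ± 0.17, from 45.4 to 22.5), proprotein convertases that can cleave lipases and ANGPTL proteins, fell too. Apoc3, the gene of an apolipoprotein that inhibits lipoprotein lipase, rose by 1.16 ± 0.20, from 2306 to 5080. Apoc1, another inhibitor, rose by 1.15, and lost its call with no filter (adjusted p = 0.0751) and without DDK replicate 2 (0.0501). The size of both rises depended on the scaling. Apoc1 stood at 0.55 after length correction, 0.56 after quantile normalization and 1.42 after median-ratio scaling, and Apoc3 at 0.75, 1.01 and 1.43. Apoc2, the lipase's activator, fell by 0.61 on the log2 scale, but 646 of its 813 exonic bases are shared with Gm44805 on the same strand and its FPKM was only 1.54 to 3.71, so its level is uncertain. It lost its call after quantile normalization (-0.32) and with voom, where the fold was larger (-0.85 ± 0.35, adjusted p = 0.0839). The lipase folding factor Lmf1 stood at -0.01 and the endothelial anchor Gpihbp1 at -0.36 without passing (adjusted p = 0.954 and 0.236).

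The list of further angiopoietin-like genes held 1 tested gene, Angptl2. Angptl2 fell by 0.52, a call that ended in 9 of 18 alternatives. Angptl1 and Angptl7 were below the filter, at no more than 0.0885 and 0.255, and no row was found for Angptl5.

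In the list of HDL and phospholipid transfer, 1 of 10 genes rose and 4 fell. Scarb1, the HDL receptor, fell from a mean FPKM of 55.5 to 25.3 (-1.06 ± 0.21, adjusted p = 0.00466), and the cholesterol exporter gene Abcg1 from 2.83 to 1.1 (-0.86 ± 0.15). Apoa2 rose by 0.88 and Abca1 and Pon3 fell by 0.66 and 0.60, calls that ended in 6, 9 and 3 alternatives. Apoa1, the main HDL protein, stood at 0.30 (adjusted p = 0.281) and Apoe at 0.08 (0.777).

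Of 6 tested lipoprotein receptor genes and regulators 2 fell and 0 rose. Mylip, a ligase that marks lipoprotein receptors for breakdown, fell by 1.28 ± 0.16 on the log2 scale, from a mean FPKM of 3.88 to 0.991. Lrp1 fell by 0.60, a call that ended in 4 alternatives, and Lrp8 was below the filter.

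Among 10 genes of VLDL assembly and export, 1 rose with Tm6sf2 and 5 fell. Smlr1, a small hepatocyte membrane protein gene linked to VLDL export, rose from an FPKM of 48.3, 39.4 and 53.5 in vehicle to 98.6, 117 and 106 in DDK livers (1.18 ± 0.14, adjusted p = 0.000797). Mia2 (-0.81 ± 0.18), a cargo receptor for large secretory loads, and Erlin1 (-0.71 ± 0.16), an ER lipid raft protein gene, fell. Mttp fell by 0.66 and Apob, the structural protein of VLDL, by 0.72. The Mttp call ended in 6 alternatives, among them median-ratio scaling (-0.39, adjusted p = 0.103) and the removal of DDK replicate 1 (0.0583), of DDK replicate 2 (0.0744) or of vehicle replicate 2 (0.0555). That of Apob ended in 7 alternatives, including the removal of any library but DDK replicate 3 and vehicle replicate 1 (adjusted p = 0.0881 to 0.102), and that of Erlin2 (-0.70) in 8.

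**Figure D4:**
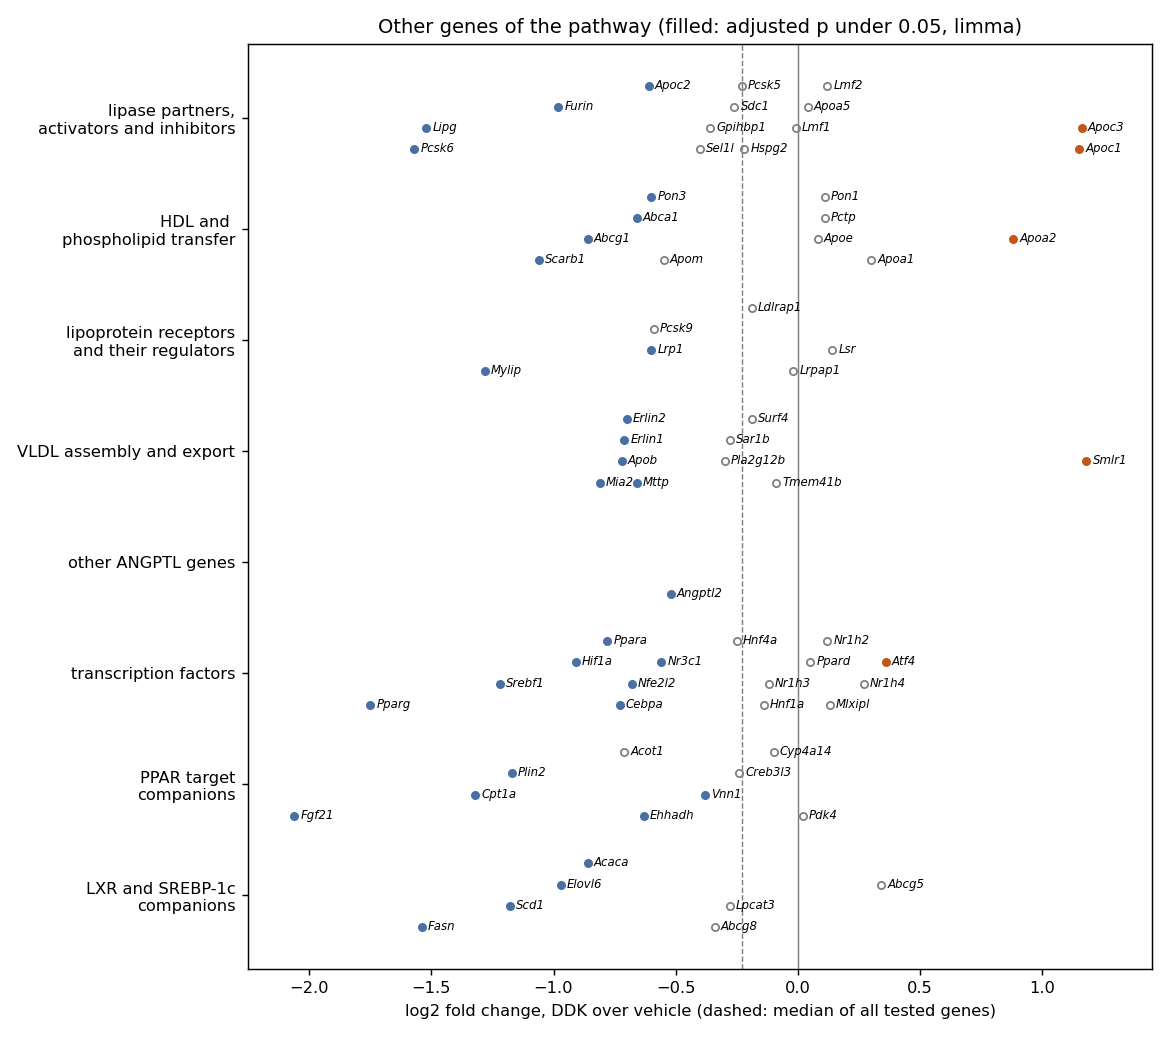
Log2 fold change of DDK over vehicle (x axis) for each tested gene of the 8 pathway lists (y axis, with points staggered for legibility), filled orange where higher and blue where lower by limma at an adjusted p under 0.05. The dashed line is the median of all tested genes (-0.23); Pparg, Pcsk6, Fasn and Lipg lie far to its left and Smlr1, Apoc3 and Apoc1 far to its right.

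Transcription factors known to act on these genes were lower or did not pass, except Atf4. Of 15, 1 rose and 7 fell. Pparg, which drives fat storage and acts on Lpl, Angptl4 and Vldlr, fell from a mean FPKM of 11.2 to 2.63 (-1.75 ± 0.13, adjusted p = 0.000118). Ppara, the fasting receptor, fell from 36.9 to 20.7 (-0.78 ± 0.18), Srebf1, which drives lipid synthesis, from 67.2 to 28.6 (-1.22 ± 0.18) and Cebpa from 228 to 137 (-0.73 ± 0.13). Nr1h3, which encodes LXR alpha, stood at -0.12 (adjusted p = 0.484) and Mlxipl, which encodes ChREBP, at 0.13 (0.458). Atf4 (0.36) rose and Hif1a (-0.91), Nfe2l2 (-0.68) and Nr3c1 (-0.56) fell, calls that ended in 9, 6, 8 and 9 alternatives.

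Known targets of these factors were lower or did not pass. Of 9 PPAR target genes 5 fell and 0 rose, where Angptl4 stood at 0.43 without passing. Cpt1a, which admits fatty acids to mitochondria, fell by 1.32 ± 0.15 and the lipid droplet coat gene Plin2 by 1.17 ± 0.14 on the log2 scale. Fgf21 (-2.06), Ehhadh (-0.63) and Vnn1 (-0.38) fell as well, and these calls ended in 1, 7 and 7 alternatives. The other 4, Acot1 (-0.71), Creb3l3 (-0.24), Cyp4a14 (-0.10) and Pdk4 (0.02), did not pass. Of these, Acot1, Cyp4a14 and Pdk4 were lowest in vehicle replicate 2 (31.8, 97.0 and 5.97), as Angptl4 was (74.9). Creb3l3 was lowest in vehicle replicate 1 (121). Of the 5 that fell, Fgf21, Ehhadh and Vnn1 were lowest among vehicle livers in replicate 2 (16.4, 234 and 117). Plin2 and Cpt1a were not, at 493 and 160 in vehicle replicate 2 against 470 and 117 in vehicle replicate 1. Of 7 tested LXR and SREBP-1c target genes 4 fell and 0 rose, while Angptl8 rose. Those that fell were Fasn (-1.54), Scd1 (-1.18), Elovl6 (-0.97) and Acaca (-0.86), all genes of fatty acid synthesis. Abcg5 (0.34), Lpcat3 (-0.28) and Abcg8 (-0.34) did not pass. The difference between a member and its companions was not tested.

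Several markers of macrophages and stellate cells were lower in DDK livers, as Lpl was. Summed FPKM of 11 macrophage and Kupffer cell markers was 155 to 392 in DDK and 504 to 843 in vehicle livers, and 6 of the 11 fell and 0 rose. Most of the sum was Lyz2 and the C1q genes. The Kupffer cell markers Clec4f (-0.35), Marco (-0.32), Timd4 (-0.01) and Vsig4 (-0.61) did not pass, and the groups overlapped for each. DDK replicate 3 had the lowest sum and vehicle replicate 3 the highest, as for Lpl. In both groups replicates 1 and 2 ranked the other way from Lpl (392 and 265 in DDK, 628 and 504 in vehicle livers). Of 6 markers of lipid-associated macrophages, which themselves express Lpl, 5 fell. Their sums were 41.4, 46.3 and 70.1 in DDK and 86.7, 92.1 and 118 in vehicle livers. Among DDK livers this sum was highest in replicate 3, where Lpl was lowest. Most of this sum was Spp1, which did not pass and is also a bile duct marker (32.8, 37.3 and 57.2 in DDK and 43.5, 47.5 and 63.0 in vehicle livers). Trem2 was 0.394 to 0.971 in DDK and 5.51 to 9.20 in vehicle livers. Cd68 was 9.70, 8.75 and 2.49 in DDK and 16.3, 11 and 19.4 in vehicle livers, so the livers with the lowest Pltp in each group also had the lowest Cd68. Of 8 stellate cell markers 6 fell (sums of 73.7 to 100 against 154 to 193) and of 8 endothelial markers 3 fell (55.3 to 72.3 against 73.9 to 116), the latter near the 30.3% of all tested genes called lower. The part of these cells in the levels of Lpl and Pltp was not tested, and in bulk tissue fewer cells of a type and less RNA per cell cannot be told apart.

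Defining markers of fat cells, a main source of Lpl elsewhere, were at or near 0, and 1 fat cell marker rose. Of 7 fat cell markers Lep was listed at 0 in all livers, and Adipoq and Plin1 in all but vehicle replicate 3 (0.0956 and 0.0615). The sums of the 7, at 6.36 to 68.5 in DDK and 44.8 to 141 in vehicle livers, were mostly Cfd except in DDK replicate 3. Cfd was 58.7, 57.6 and 1.40 in DDK and 39.2, 89.0 and 134 in vehicle livers, and did not pass (-1.95, limma adjusted p = 0.154). Its lowest and highest livers were those of Lpl. The part of fat cells in the level of Lpl was not tested. The 1 that rose of the 3 tested was Adrb3, which encodes a beta-adrenergic receptor, at 3.24, 2.51 and 1.29 in DDK and 0.488, 0.394 and 0.590 in vehicle livers (1.12 ± 0.21, limma adjusted p = 0.00358). Of 6 muscle markers 4 were tested and 0 passed, with sums of 10.2 to 21.4 and 9.15 to 24.2. Of 7 hepatocyte markers found, 4 rose and 0 fell, with sums of 55852 to 59217 in DDK and 30733 to 41473 in vehicle livers, most of it Alb. Alb (0.88) and Asgr1 (0.48) were among those that rose, while Cps1 (-0.45, adjusted p = 0.186) and Hnf4a (-0.25, 0.159) had lower means in DDK and did not pass. The hepatocyte genes Tm6sf2 and Angptl8 rose alongside, and the part of these markers' rise in theirs was not tested. Of 5 bile duct markers 1 rose (sums of 36.3 to 62.1 and 46.4 to 68.7), and the 1 tested pancreas marker of 5 did not pass.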

How the data were processed

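FPKM per gene symbol for 6 mouse liver libraries were taken from the table the authors deposited. The build was GRCm38 (mm10) per the submitters' processing notes. The NEBNext Ultra kit named in the labels' protocols marks no strand. Aligner, counter, annotation and the handling of fragments that match several genes are not given in the sources used here. Columns were matched to samples by library name.

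Members, lists and tests were chosen with earlier results of these data known. Log2(FPKM + 1) was tested with limma 3.58.1 (R 4.3.3, variance trend) over the 10681 genes that reached 0.5 FPKM in 3 or more libraries, with Benjamini-Hochberg adjustment over all of them and a threshold of 0.05. Errors of fold changes are SE, and this scale understates changes of low genes. No label says that livers within a group came from separate cages or batches, so p-values measure the spread between these livers. Whole fragments were recovered from FPKM for 16573 genes. The length used for a gene was the smallest that made its values whole. That 100.0% of values were whole within 0.01 fragment thus follows largely from the method and is no check of it. A factor common to all fragment numbers of a gene would be missed. Named genes were the members, called list genes, ratio partners and, of the 2 genes nearest in pattern to each called member, those reported here. Other genes were named after their values were seen. The 18 alternatives were pseudocount 0.1, no filter or a filter at 1, median-ratio, quantile or TPM scaling, leaving out the 20 most abundant genes, lowess length correction (span 0.3), voom on genes with 10 fragments in 3 libraries, no trend, robust moderation, a replicate block and each library left out. Gene coordinates follow GENCODE M21. A few planned genes and ratios are not reported here, and list counts leave those genes out, while the adjustment of ratios covers all 8 tested.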

Additional observations from a re-analysis of the deposited data

How the results depend on the processing

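The counts of members called were 2 higher and 1 lower. They were 1 higher with no filter, 4 higher and 0 lower after median-ratio scaling, 0 lower after quantile normalization or length correction, and 2 lower with voom on whole fragments, which tests Vldlr. Without 1 library each, 1 to 3 members were higher and 0 to 1 lower, and 2348 to 5686 of all tested genes were called beside 4327 with all libraries. Without DDK replicate 1, DDK replicate 2, vehicle replicate 2 and vehicle replicate 3 these were 2796, 2348, 2933 and 2490. Lcat turned to -0.10 after quantile normalization and -0.12 under TPM, and lay between -0.02 (without vehicle replicate 2) and 0.23 with 1 library left out. Pltp turned to 0.11 after median-ratio scaling, and lay between -0.44 and 0.06 with 1 library left out, above 0 without DDK replicate 3 (0.06) or vehicle replicate 1 (0.03). None of these was called. Of 160 values of single members under alternatives, 134 kept direction and side of the threshold, and of 663 values of called pathway genes 560 did and 0 changed sign.

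Deviations of same-numbered DDK and vehicle libraries from their group means correlated over genes at 0.14, -0.15 and 0.06. Differently numbered pairs ran from -0.21 to 0.21. With 3 livers a group these correlations cannot exclude a pairing. With the replicate block 4134 genes were called, and members stayed at 2 higher and 1 lower. The SE fell for Angptl8 (0.23 to 0.18), Angptl4 (0.21 to 0.17), Pltp (0.25 to 0.22) and Tm6sf2 (0.23 to 0.21). It did not fall for the other tested members. Depth limits Vldlr most, at 28 to 366 fragments a library.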
